A study of Mus musculus with 13 samples.

Results

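The genes described here belong to the prolactin family of the mouse: Prl3a1, also called prolactin-like protein I, and the proliferin genes Prl2c2, Prl2c3 and Prl2c5. They were chosen by name from a table of 25965 gene intervals, with measured values of the same table known, because Prl3a1 fell with 5-azacytidine in control hairpin cells. Of 5 names asked for, 4 had an interval in the table. Prl2c4 had none, and RefSeq lists that name as a synonym of Prl2c3. Since the fall of Prl3a1 in control hairpin cells chose the members, their values in that comparison are given as a description with no test.

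The study sequenced polyadenylated RNA from primary mouse embryonic fibroblasts in 13 libraries, 12 of which fall into 4 groups of 3. The fibroblasts of these 12 libraries were female cells from E13.5 embryos. They carried an X chromosome with a mutated Xist and a polymorphic X (XXist∆A/XPGK), and had been given a retroviral hairpin and selected with puromycin. The groups were a control hairpin alone, a control hairpin with 5-azacytidine (5-aza), a Setdb1 hairpin alone, and a Setdb1 hairpin with 5-aza. In the controls, replicate 1 carried a hairpin against luciferase and replicates A and B the non-silencing hairpin (Nons). In the Setdb1 groups, replicate 1 carried shSetdb1.6 and replicates A and B carried shSetdb1.4. The drug was given for 24 h from day 3, and cells were harvested on day 7. The study's text places Setdb1 hairpins in cells with one gene-trap allele of Setdb1 and Nons in cells with both alleles intact, while the genotype of the luciferase cells is not stated, so the hairpin and the genotype cannot be told apart. The labels name no separate embryo for each library, so a p-value here measures only the spread between these libraries, which may be technical. The thirteenth library, given 5-aza with no named hairpin, entered no comparison. Its library name holds PGK, and its genotype is not stated, so it may differ from the others in more than the hairpin.

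Prolactin and its relatives are secreted hormones. In the mouse the family has expanded into a large cluster of genes on chromosome 13, most of which are used by trophoblast cells of the placenta, whereas prolactin itself is best known from the pituitary. Proliferins were first known from growth-stimulated mouse fibroblast lines and act on blood vessel cells, in part through the mannose 6-phosphate receptor encoded by Igf2r. Setdb1 deposits the repressive histone mark H3K9me3, and 5-aza is incorporated into nucleic acid and traps DNA methyltransferases such as Dnmt1, so that DNA methylation is lost as cells divide.

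Setdb1 itself, the target of the hairpins, was at 46.2 ± 0.10 RPM (reads scaled to a common library total, mean ± SD, n = 3) with the control hairpin and 14.1 ± 1.7 RPM with the Setdb1 hairpin, a log2 difference of -1.73 (SE 0.11, adjusted p = 1.52e-06). The labels of all 6 Setdb1 hairpin libraries matched this, since with 5-aza the levels were 43.4 ± 0.63 and 12.9 ± 2.2 RPM. Dnmt1 was at 83.7 ± 1.5 RPM with the control hairpin and higher by 0.36 on the log2 scale with the Setdb1 hairpin (SE 0.07, adjusted p = 0.00491). The 12 libraries held 36.4 to 51.3 M reads in the listed genes, and 1 read was worth 0.017 to 0.0239 RPM. All 10 fibroblast markers had reads in all 12 libraries. Of 16 trophoblast markers, Gcm1, Elf5, Cdx2, Tpbpa, Ctsq, Cts7 and Cts8 had no read in any of the 12, while Gata2 at 8.33 to 19.8 RPM and Gata3 at 8.96 to 17.2 RPM made up most of the summed level of the list.

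All 4 members lie on chromosome 13 of GRCm38. The proliferin intervals neighbour each other, with Prl2c3 at chr13:12790822-12800078 on the minus strand, Prl2c2 at chr13:12996132-13005383 on the minus strand and Prl2c5 at chr13:13182715-13191923 on the plus strand. Prl3a1 lies farther along, at chr13:27259436-27276660 on the plus strand, among other prolactin family genes. The proliferin transcripts are near copies. In the GENCODE annotation, the transcripts of Prl2c2 and Prl2c3 differed at 4 of 842 aligned bases (99.5% identity), and Prl2c5 was 96.6% identical to Prl2c2 and 96.4% to Prl2c3. Of all stretches of 100 bases in Prl2c3, 62.3% also occurred in Prl2c2 or in the pseudogene Gm7040, which has no row in the table. For Prl2c2 the share was 66.4%, for Prl2c5 it was 9.29%, and for Prl3a1 no such stretch was found in another gene. The division of reads between Prl2c2 and Prl2c3 is therefore uncertain, and their sum is given beside them.

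The stretches of 250 bases before the RefSeq start of each gene are shown because, between the groups, the proliferin genes moved together and Prl3a1 did not move with them. Capitals mark CG dinucleotides, the AP-1 motif TGANTCA and the letters TATAAA. The windows are chr13:12800080-12800329 on the minus strand for Prl2c3, chr13:13182466-13182715 on the plus strand for Prl2c5 and chr13:27259239-27259488 on the plus strand for Prl3a1, from RefSeq on GRCm38.p6. Prl2c2 was not in the promoter table used.
Prl2c3: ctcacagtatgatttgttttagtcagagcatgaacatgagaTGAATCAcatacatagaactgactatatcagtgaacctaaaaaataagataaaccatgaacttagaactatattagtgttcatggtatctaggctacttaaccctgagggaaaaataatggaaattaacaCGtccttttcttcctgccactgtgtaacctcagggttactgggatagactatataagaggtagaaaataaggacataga
Prl2c5: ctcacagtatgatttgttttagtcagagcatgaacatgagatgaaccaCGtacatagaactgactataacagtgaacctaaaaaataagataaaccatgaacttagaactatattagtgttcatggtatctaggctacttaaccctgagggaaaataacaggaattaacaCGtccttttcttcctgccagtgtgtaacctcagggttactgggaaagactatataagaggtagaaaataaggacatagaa
Prl3a1: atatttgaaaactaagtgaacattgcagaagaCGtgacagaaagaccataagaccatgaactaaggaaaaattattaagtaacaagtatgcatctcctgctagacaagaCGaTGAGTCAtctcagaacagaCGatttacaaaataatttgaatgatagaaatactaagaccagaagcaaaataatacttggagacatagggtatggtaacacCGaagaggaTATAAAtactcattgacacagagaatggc
Over the full window of 300 bases, which runs 50 bases past the start, Prl2c3 and Prl2c5 were identical at 96.0% of aligned bases. Each held 2 CG dinucleotides and Prl3a1 held 4, where the median of all 32851 promoters was 7. TGANTCA, searched on both strands, matched 209 bases upstream of the start in Prl2c3 and 138 bases upstream in Prl3a1, and 7.81% of all promoters held it. TATAAA matched in Prl3a1, 29 bases upstream, against 13.6% of all promoters. The GATA motif AGATAA matched once each in Prl2c3 and Prl2c5, against 11.2% of all promoters. These matches describe the letters only.

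Prl2c3 was the most abundant member in the treated groups and was highest where both the Setdb1 hairpin and 5-aza were present. With the control hairpin it was at 2.36, 1.17 and 0.906 RPM in replicates 1, A and B, from 111, 66 and 42 reads. With the control hairpin and 5-aza it was at 11.0, 2.93 and 5.19 RPM. With the Setdb1 hairpin alone it was at 6.96, 1.98 and 7.21 RPM, so either treatment by itself was accompanied by a similar range. With both, it was at 47.1, 21.3 and 54.1 RPM, from 2455, 1065 and 2717 reads, and the lowest of these 3 libraries lay above every library of the other groups. Replicate A was the lowest of its group in the 3 treated groups.

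Prl2c2 followed the same order of groups at a much lower level. It held 5, 2 and 1 reads with the control hairpin (0.106, 0.0354 and 0.0216 RPM) and 26, 6 and 19 reads with 5-aza added (0.539, 0.129 and 0.354 RPM). With the Setdb1 hairpin alone it held 8, 5 and 19 reads (0.191, 0.105 and 0.323 RPM). With both it reached 1.86, 1.16 and 2.11 RPM, from 97, 58 and 106 reads. The filter on low values asked for 1 RPM or more in 3 or more hairpin libraries, and it passed only through that last group. Its reads may in part be those of Prl2c3, as the near identity of the transcripts described above allows.

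Prl2c5 has the most sequence of its own among the 3 proliferins and showed the same order. It held 1, 1 and 0 reads with the control hairpin, at or under 0.0213 RPM. It held 32, 9 and 11 reads with the control hairpin and 5-aza, or 0.663, 0.194 and 0.205 RPM. With the Setdb1 hairpin alone it held 10, 4 and 20 reads, or 0.239, 0.0842 and 0.340 RPM. With both it was at 1.46, 0.640 and 1.61 RPM, from 76, 32 and 81 reads. Since 2 libraries reached 1 RPM, Prl2c5 did not pass the filter on low values and has no result in the fit over the filtered genes.

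Prl3a1 was ordered the other way, highest with the control hairpin alone. There it was at 2.89, 1.61 and 1.66 RPM in replicates 1, A and B, from 136, 91 and 77 reads. With the control hairpin and 5-aza it was at 0.808, 0.301 and 0.316 RPM, from 39, 14 and 17 reads. With the Setdb1 hairpin alone it was at 0.978, 0.631 and 1.39 RPM, below every control hairpin library. With both it was at 0.537, 0.280 and 0.597 RPM, from 28, 14 and 30 reads. It passed the filter on low values through the 3 control hairpin libraries and replicate B of the Setdb1 hairpin. In bulk RNA, fewer cells that use a gene and less RNA per cell cannot be told apart.

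**Figure D1:**
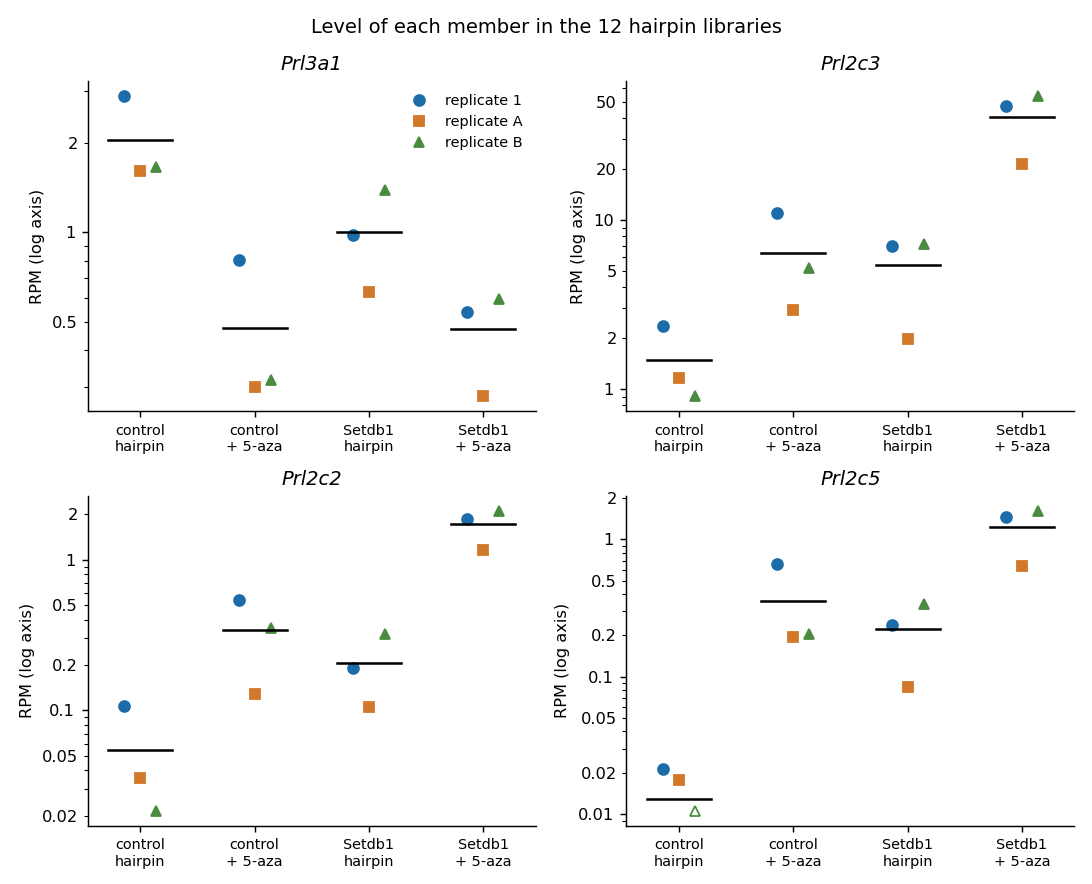
RPM of Prl3a1, Prl2c3, Prl2c2 and Prl2c5 in each of the 12 hairpin libraries, on log axes that differ between panels; points are libraries, bars are group means (n = 3), and the open triangle stands for a library with 0 reads. The 3 proliferins are highest with the Setdb1 hairpin and 5-aza together, 21.3 to 54.1 RPM for Prl2c3, whereas Prl3a1 is highest with the control hairpin alone, 1.61 to 2.89 RPM.

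Per kilobase of exon, which allows levels of different genes to be set side by side, Prl3a1 and Prl2c3 were alike in control hairpin cells, at 1.15 ± 0.41 and 1.09 ± 0.57 RPM per kb (mean ± SD, n = 3). Prl2c2 and Prl2c5 were then at 0.0499 ± 0.042 and 0.0110 ± 0.0097 RPM per kb. With the Setdb1 hairpin and 5-aza, Prl2c3 was at 30.0 ± 12.7 RPM per kb, Prl2c2 at 1.57 ± 0.45, Prl2c5 at 1.05 ± 0.44 and Prl3a1 at 0.265 ± 0.095. Those of Prl2c2 and Prl2c5 lay within their spread of each other, and that of Prl2c3 stood above both in every library.

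The summed level of the 3 proliferins was 1.54 ± 0.83 RPM with the control hairpin and 7.06 ± 4.6 RPM with 5-aza added (mean ± SD, n = 3). It was 5.81 ± 3.2 RPM with the Setdb1 hairpin alone and 43.8 ± 18.3 RPM with both. Reads assigned to Prl2c3 made up 90.1% to 97.7% of the sum in each hairpin library, so the sum and Prl2c3 are close to 1 measurement. Prl2c5 made up 0% to 1.45% of the sum with the control hairpin and 3.56% to 5.96% with the control hairpin and 5-aza.

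The comparison of 5-aza with no 5-aza in Setdb1 hairpin cells asks what the drug adds when Setdb1 is depleted. Its differences use no library of the comparison that chose the members. The SE and adjusted p draw on the spread within all 12 libraries, those of that comparison included. DNA methylation was not measured in these libraries. Here Prl2c3 rose from a mean of 5.38 to 40.8 RPM, by 3.03 on the log2 scale (SE 0.59, adjusted p = 0.00380 by limma). It had no overlap between the groups and stayed called in the fits that left out any 1 of the 6 libraries. With these 2 groups alone in the fit, its adjusted p was 0.00860 by limma. Prl2c2 was at 0.206 and 1.71 RPM, also with no overlap, a difference of 3.15 (SE 0.65). It passed the filter only through its level with both treatments, the group compared here, so its adjusted p of 0.00499 is no independent support. In a fit of all 25965 genes with no filter its adjusted p was 0.00845. Of all 13134 genes tested, 21.4% rose in this comparison, so a rise as such was common, and a rise of this size is the measurement.

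Within each pair of Setdb1 hairpin libraries with the same replicate name, Prl2c3 was 6.76-fold (replicate 1), 10.8-fold (A) and 7.51-fold (B) higher with 5-aza. The fold was higher in replicate A, which started from the lowest level. Prl2c5 was 6.11-fold, 7.61-fold and 4.74-fold higher in the same pairs. In the fit with no filter on low values, Prl2c5 rose by 2.59 on the log2 scale (SE 0.59, adjusted p = 0.0139).

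Prl3a1 was lower with 5-aza in all 3 Setdb1 hairpin pairs, by 1.82-fold, 2.25-fold and 2.33-fold in replicates 1, A and B. Its mean was 1.0 RPM without and 0.471 RPM with 5-aza, and the groups did not overlap. The difference of -1.09 on the log2 scale (SE 0.43) did not pass the threshold in the fit without a block, with an adjusted p of 0.0790 by limma. Libraries that share hairpin and replicate name are called a culture pair here. The labels do not state that they came from a shared culture. With that pair as a block, adjusted p = 0.000993 by limma for the same difference. In this comparison 7.51% of all genes tested fell.

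The comparison of Setdb1 hairpin with control hairpin in cells given 5-aza asks what the Setdb1 hairpin, with the genotype that goes with it, adds to the drug. Its control hairpin libraries with 5-aza also belong to the comparison that chose the members. Prl2c3 was at 6.36 RPM with the control hairpin and 40.8 RPM with the Setdb1 hairpin, a rise of 2.78 on the log2 scale (SE 0.59, adjusted p = 0.00749 by limma). Prl2c2 was at 0.341 and 1.71 RPM, a difference of 2.51 (SE 0.65, adjusted p = 0.0187), and here too the filter was passed only through the higher group. With no filter its adjusted p was 0.0317. The call of Prl2c2 in the filtered fit was lost without replicate 1 of the Setdb1 hairpin with 5-aza (adjusted p = 0.0711), without replicate B of that group (0.0736) and without replicate A of the control hairpin with 5-aza (0.0736). Of all genes tested, 14.5% rose and 5.37% fell.

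Prl2c5 was at 0.354 ± 0.27 RPM with the control hairpin and 1.24 ± 0.52 RPM with the Setdb1 hairpin, both with 5-aza. These groups overlapped, and in the fit with no filter on low values the difference of 1.95 (SE 0.59) had an adjusted p of 0.0640. Prl3a1 was at 0.475 ± 0.29 and 0.471 ± 0.17 RPM, and the groups overlapped over most of their range. Its difference was 0.07 on the log2 scale with an SE of 0.43, which leaves room for a change in either direction, with an adjusted p of 0.921 by limma. The sign was negative after quantile normalization (-0.65), and the value lay between -0.18 and 0.54 when 1 library was left out, below 0 without replicates A or B of the control hairpin with 5-aza or replicates 1 or B of the Setdb1 hairpin with 5-aza.

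Without 5-aza, the Setdb1 hairpin was compared with the control hairpin. This comparison asks what that hairpin, with the genotype that goes with it, does without the drug, and shares its control libraries with the one that chose the members. None of the 3 members tested passed the threshold by limma, or by limma-voom on the recovered reads, although all 3 had an unadjusted p under 0.05. Prl2c3 was at 1.48 ± 0.77 and 5.38 ± 3.0 RPM, a difference of 1.77 on the log2 scale (SE 0.59, adjusted p = 0.0724 by limma). There, replicate A of the Setdb1 hairpin, at 1.98 RPM, lay below replicate 1 of the control hairpin, at 2.36 RPM. Without that Setdb1 hairpin library the difference was 2.39 with an adjusted p of 0.0218.

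Prl2c2 differed by 2.11 between these groups (SE 0.65, adjusted p = 0.0537), with 8 reads in all in the control hairpin libraries. It passed the threshold without replicate A of the Setdb1 hairpin (adjusted p = 0.0466) or without replicate 1 of the control hairpin (adjusted p = 0.0225), and its sign turned after quantile normalization (-0.16). Prl2c5 had 34 reads in the Setdb1 hairpin libraries and 2 in the control hairpin libraries, a ratio of 17.2 after scaling, with an exact 95% counting interval of 4.41 to 148 and an adjusted p of 0.00658 in the fit with no filter. Intervals of this kind cover counting error only, since copies made by PCR are not independent molecules. In that fit a library with no read entered at a fixed floor, so the spread of Prl2c5 in the control hairpin group is in part set by it. The adjusted p of Prl2c5 is therefore no independent support. Prl3a1 was at 2.05 ± 0.73 and 1.0 ± 0.38 RPM with no overlap, a difference of -1.06 (SE 0.43, adjusted p = 0.136). The control hairpin values of Prl3a1 in it are those that chose the members. Of all genes tested, 9.01% rose and 3.4% fell.

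In control hairpin cells, the comparison behind the choice of the members, Prl3a1 was 3.57-fold lower with 5-aza in replicate 1, 5.34-fold lower in A and 5.25-fold lower in B. The difference was -2.22 on the log2 scale (SE 0.43). The proliferins had the opposite sign, with Prl2c3 higher by 2.02 (SE 0.59) and Prl2c2 by 2.75 (SE 0.65). Prl2c3 was 4.65-fold, 2.51-fold and 5.73-fold higher in replicates 1, A and B, and none of the 3 libraries with 5-aza overlapped those without. Prl2c5 had 52 reads with and 2 without 5-aza, a scaled ratio of 26.3 with an exact 95% counting interval of 6.92 to 223. In this comparison 18.8% of all genes tested were called in either direction, and nothing is read from that share here.

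**Figure D2:**
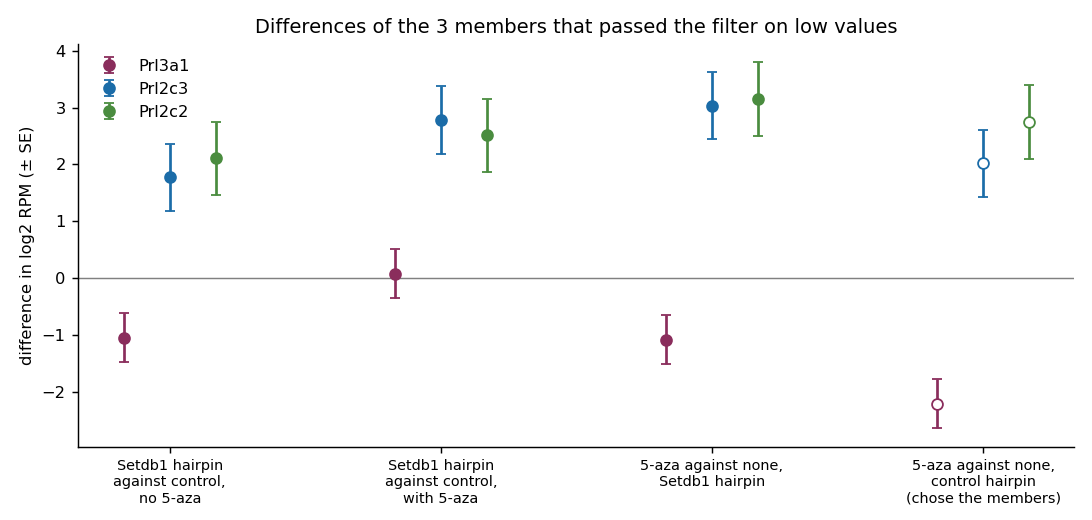
Differences in log2 RPM of Prl3a1, Prl2c3 and Prl2c2 in the 4 comparisons, from 1 fit of 12 libraries; bars are ± SE, and open symbols mark the comparison that chose the members. Prl2c3 and Prl2c2 lie above 0 in all 4, from 1.77 to 3.15, and Prl3a1 lies below 0 in 3 and at 0.07 between the hairpins with 5-aza.

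The difference between the 5-aza effects in Setdb1 hairpin and control hairpin cells was 1.13 for Prl3a1 (SE 0.61), 1.01 for Prl2c3 (SE 0.84) and 0.40 for Prl2c2 (SE 0.91) on the log2 scale. For Prl2c5, with 0 or 1 read in each control hairpin library and no filter, it was -1.34 (SE 0.84), and with 0.1 or 1 RPM added it was 0.20 or 0.45. These values share a term with the comparison that chose the members and carry no test. For Prl2c2 the sign depended on the library left out, with values from -0.24 to 0.91.

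Across the 12 libraries, log2 RPM of Prl2c2 and Prl2c3 had a Pearson r of 0.98, and that of Prl2c5 with each of them was 0.94. Prl3a1 had an r of -0.47 with Prl2c3 and -0.63 with Prl2c5. These correlations are descriptions over libraries that share their groups, so most of what they measure is the order of the group means. Within groups, the replicates of Prl3a1 and Prl2c3 ran alike in Setdb1 hairpin cells, where replicate A was the lowest of both genes with and without 5-aza. Replicate A was also the lowest of both with the control hairpin and 5-aza. In control hairpin cells, replicate 1 was the highest of both genes with and without 5-aza.

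Of the rest of the prolactin family, including growth hormone Gh, the table held 23 rows, and none passed the filter on low values. No read was found in 12 of them in any hairpin library, Gh among them, a count of 0 allowing up to 0.051 to 0.0715 RPM per library. Another 3 (Prl3d3, Prl6a1 and Prl7d1) had at most 5 reads in a library. The remaining 8 had more than 3 reads in at least 3 libraries.

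Prl, which encodes prolactin, had 4, 8 and 10 reads with the control hairpin and 16, 22 and 28 reads with 5-aza added. It had 5 to 13 reads with the Setdb1 hairpin and 19 to 31 with both. In the fit with no filter on low values, Prl rose with 5-aza by 1.66 on the log2 scale in control hairpin cells (SE 0.40, adjusted p = 0.0223 by limma) and by 1.64 in Setdb1 hairpin cells (SE 0.40, adjusted p = 0.0178). The Setdb1 hairpin groups overlapped the control groups, with differences of 0.26 and 0.24 (SE 0.40 each). Prl3a1, a gene of the same cluster, was lower with 5-aza in the same libraries.

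Prl3d1, one of the genes for placental lactogen I, was at 0.0986 RPM with the control hairpin, 0.145 RPM with 5-aza added, 0.108 RPM with the Setdb1 hairpin and 0.359 RPM with both. Its highest library held 26 reads. In the unfiltered fit it passed no test, with adjusted p of 0.104 for 5-aza in Setdb1 hairpin cells and 0.185 between hairpins with 5-aza. Prl3d2, a close relative, was at 0.142 RPM with 5-aza in control hairpin cells and 0.144 RPM in Setdb1 hairpin cells, both from at most 11 reads.

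Prl2c1, the fourth gene of the proliferin kind in the table, is 92.3% to 93.8% identical to the other proliferin transcripts. It had 2, 0 and 0 reads with the control hairpin, 8, 3 and 1 with 5-aza, 1, 0 and 0 with the Setdb1 hairpin, and 12, 8 and 8 with both. The ratio of 28 reads to 1 for 5-aza in Setdb1 hairpin cells was 27.3 after scaling, with an exact 95% counting interval of 4.505 to 1114. In the unfiltered fit this difference had an adjusted p of 0.00562. Prl2c1 was named for over 3 reads in at least 3 libraries, which it met only with the group given both treatments counted. A rise in that group is thus in part fixed by the choice. Libraries with no read entered the fit at a fixed floor, so the spread of the Setdb1 hairpin group is in part set by that floor. The adjusted p of Prl2c1 is therefore no independent support.

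Prl8a6, Prl8a9, Prl7b1 and Prl7a1, genes known from the placenta, had group means of at most 0.222 RPM, each highest with the Setdb1 hairpin and 5-aza. For 5-aza in Setdb1 hairpin cells the unfiltered fit gave adjusted p of 0.0130 for Prl8a6, 0.0154 for Prl8a9 and 0.00523 for Prl7b1. Between hairpins with 5-aza it gave 0.0444 for Prl8a6. Prl7a1 had an adjusted p of 0.225. At 4 to 16 reads per library in the highest group, their levels are low and their folds imprecise. They were named for over 3 reads in at least 3 libraries, which Prl8a6, Prl7b1 and Prl7a1 met only with that group counted. For these, a rise in that group is in part fixed by the choice, so their adjusted p-values are no independent support.

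**Figure D3:**
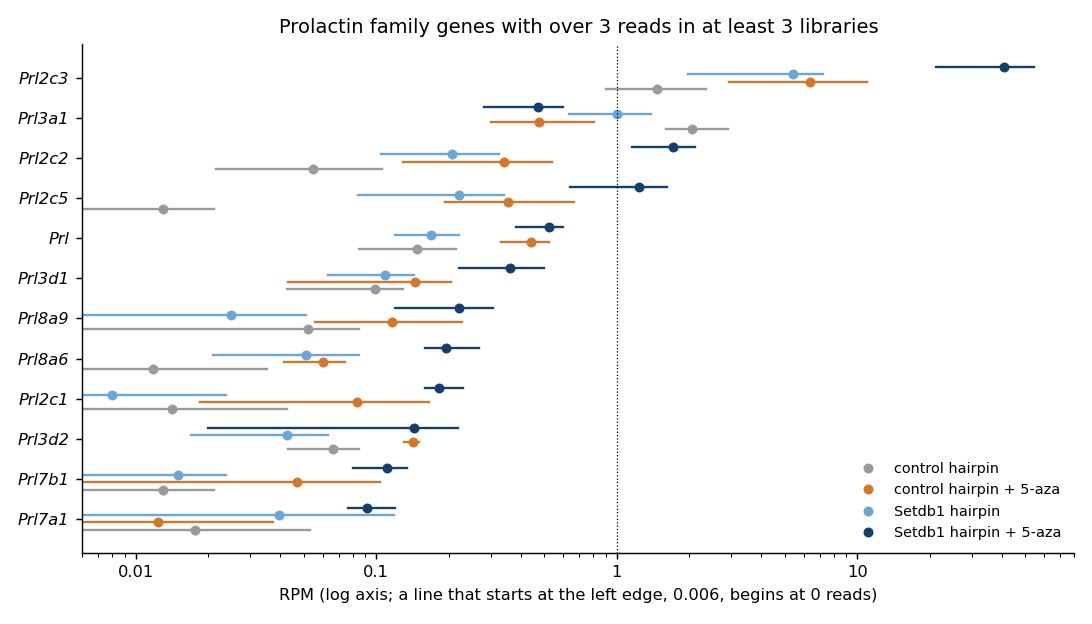
Mean RPM (points) and range over 3 libraries (lines) in each group for the 12 prolactin family genes with more than 3 reads in at least 3 hairpin libraries, on a log axis; the dotted line is at 1 RPM. Prl2c3 reaches a mean of 40.8 RPM, and Prl3a1 is the gene whose mean is highest in control hairpin cells, 2.05 RPM.

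The receptors and signalling genes of the pathway were measured in the same cells. All 11 genes of this list were tested. Between hairpins, 0 were called by limma or by limma-voom, while 2 without 5-aza and 3 with 5-aza had an unadjusted p under 0.05 (medians 0.06 and 0.01, against 0.03 and 0.05 over all genes). Over all genes, 9.01% rose and 3.4% fell without 5-aza, and 14.5% rose and 5.37% fell with it. With 11 genes, nothing is read from a count of 0 beside those shares. With 5-aza in Setdb1 hairpin cells 1 of the 11 rose and none fell, where 21.4% of all genes rose and 7.51% fell (median log2 difference 0.05, 0.06 over all genes). With the culture pair as a block, Ghr fell there too (-0.18, adjusted p = 0.00918), where it was not called without the block. Over all genes, 5276 were called in either direction with that block and 3792 without it. In control hairpin cells 1 rose and 1 fell, where 18.8% of all genes were called in either direction (median 0.13, 0.04 over all genes). The genes that rose were the feedback inhibitor Cish (0.30, adjusted p = 0.0176) in Setdb1 hairpin cells, and Stat5a, which acts below the prolactin receptor, in control hairpin cells (0.21, adjusted p = 0.0272).

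Prlr, the prolactin receptor, was near the filter at 0.809 ± 0.068 RPM with the control hairpin and 1.26 ± 0.23 RPM with 5-aza added, a difference of 0.63 that did not pass the threshold (SE 0.22, adjusted p = 0.0642). It was at 0.892 ± 0.28 and 1.16 ± 0.12 RPM in Setdb1 hairpin cells. Ghr, the growth hormone receptor, fell from 161 ± 2.3 to 129 ± 8.1 RPM with 5-aza in control hairpin cells, by 0.33 on the log2 scale (SE 0.07, adjusted p = 0.00821). Igf2r, which binds proliferin, was abundant at 405 ± 28, 487 ± 129, 474 ± 77 and 446 ± 68 RPM in the control, control with 5-aza, Setdb1 and Setdb1 with 5-aza groups, which overlapped, and it passed the threshold in none of the 4 comparisons.

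The 21 genes of the growth factor response were listed because proliferin is known from growth-stimulated cells, and all were tested. Without 5-aza, 1 fell with the Setdb1 hairpin and none rose, where 3.4% and 9.01% of all genes did, and with 5-aza 2 rose and none fell, where 14.5% and 5.37% did (medians 0.05 and 0.01, against 0.03 and 0.05 over all genes). With 5-aza, 1 rose and 5 fell in Setdb1 hairpin cells, and 1 rose and 3 fell in control hairpin cells (medians -0.05 and -0.11, against 0.06 and 0.04). Over all genes, 21.4% rose and 7.51% fell in Setdb1 hairpin cells, and 18.8% were called in either direction in control hairpin cells. With the culture pair as a block, 4 of the 21 rose and 8 fell in Setdb1 hairpin cells. Over all 13134 genes tested, 5276 were called in either direction with that block and 3792 without it. Fos, a subunit of AP-1, fell with the Setdb1 hairpin alone (-0.41, adjusted p = 0.0257), and the AP-1 subunits Jun and Junb rose with it in the presence of 5-aza (0.19 and 0.18, adjusted p = 0.0274 and 0.0171). Fosl2, another AP-1 subunit, rose with 5-aza in both kinds of cells (0.30 and 0.16 with Setdb1 and control hairpins, adjusted p = 0.000993 and 0.0285).

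The early growth response gene Egr2 fell with 5-aza in Setdb1 hairpin cells from 28 to 12.4 RPM, by 1.15 on the log2 scale (adjusted p = 0.0145). Pdgfrb, a receptor for platelet-derived growth factor, fell from 377 to 229 RPM there (-0.72, adjusted p = 0.0146), and Egr1 fell by 0.31 (adjusted p = 0.0324). In control hairpin cells the genes that fell were Junb (-0.20, adjusted p = 0.0104), Myc (-0.24, adjusted p = 0.00988) and Ier2 (-0.24, adjusted p = 0.0257). The fall of Egr2 was the largest called difference on either list, against rises of 2.78 and 3.03 for Prl2c3.

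Markers of other cell types were set beside the proliferin levels. The summed level of the 16 trophoblast markers was 19.3 to 24.6 RPM with the control hairpin, 20.6 to 32.0 with 5-aza added, 19.6 to 27.7 with the Setdb1 hairpin and 28.8 to 37.0 with both. Only Gata2, Gata3 and Eomes were tested, of which Gata2 rose between hairpins with 5-aza (0.68, adjusted p = 0.0314) and Gata3 rose with 5-aza in Setdb1 hairpin cells (0.59, adjusted p = 0.0148). With the culture pair as a block Gata2 rose there as well (0.48, adjusted p = 0.00528). The medians of these 3 genes were 0.28 between hairpins without and 0.47 with 5-aza, and 0.48 and 0.15 for 5-aza in Setdb1 and control hairpin cells. In the same order, the medians over all genes were 0.03, 0.05, 0.06 and 0.04. Of all genes, 14.5% rose between hairpins with 5-aza and 21.4% rose with 5-aza in Setdb1 hairpin cells. Tpbpa, Ctsq, Cts7 and Cts8, markers of differentiated trophoblast, were at 0 in all 12 libraries. Other markers of the list held few reads, at most 10 in a library for Plac1, 7 for Hand1 and 6 for Rhox6. Ascl2 and Tfap2c held at most 4 and Rhox9 at most 2. In the control, control with 5-aza, Setdb1 and Setdb1 with 5-aza groups, 9, 8, 9 and 7 of the 16 had no read.

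The summed level of the 5 epithelial markers was lowest with the control hairpin and highest with both treatments, as that of the proliferins was. It was 2.74 to 3.27 RPM with the control hairpin, 8.85 to 10.9 with 5-aza added, 9.81 to 10.7 with the Setdb1 hairpin and 21.5 to 24.4 with both. The keratins Krt8 and Krt18 were the tested members and rose in all 4 comparisons, for Krt18 by 1.03 to 1.74 on the log2 scale. The defining markers Epcam and Cdh1 stayed at or under 0.119 and 0.0800 RPM, with at most 7 and 4 reads in a library. Other markers also moved with 5-aza. The macrophage list of 5 genes summed to 9.86 to 10.8, 11.6 to 13.9, 9.62 to 10.4 and 12.6 to 13.0 RPM in the control, control with 5-aza, Setdb1 and Setdb1 with 5-aza groups. Csf1r rose with 5-aza by 0.29 and 0.27 in Setdb1 and control hairpin cells (adjusted p = 0.0121 and 0.0220), and Cd68 rose by 0.52 in Setdb1 hairpin cells (adjusted p = 0.0281), while Ptprc and Emr1 stayed at or under 0.319 and 0.0861 RPM. The muscle list of 4 genes summed to 12.1 to 15.3, 22.6 to 28.6, 19.4 to 19.5 and 22.8 to 28.1 RPM, nearly all from Des, which rose with 5-aza by 0.36 and 0.94 and with the Setdb1 hairpin alone by 0.53 (adjusted p = 0.0259, 0.000184 and 0.00763). Of the 4 endothelial markers, 2 were tested and 0 were called in any of the 4 comparisons by limma or limma-voom, with 0 at an unadjusted p under 0.05. Over all genes, 9.01% rose and 3.4% fell between hairpins without 5-aza, and 14.5% and 5.37% did with it. With 5-aza, 21.4% rose and 7.51% fell in Setdb1 hairpin cells, and 18.8% were called in either direction in control hairpin cells. With 2 genes, nothing is read from a count of 0 beside those shares. Among the fibroblast markers, Col1a1 (-0.73, adjusted p = 0.0337) and Pdgfrb fell and Vim rose (0.20, adjusted p = 0.0152) with 5-aza in Setdb1 hairpin cells, and Thy1 fell between hairpins with 5-aza (-0.46, adjusted p = 0.0277). With the culture pair as a block, Col1a2 (-0.57, adjusted p = 0.000557) and Col3a1 (-0.45, adjusted p = 0.0143) fell with 5-aza in Setdb1 hairpin cells as well. The part of these markers in the levels of the members was not tested.

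Of the genes around the members, 31 rows lay within 500 kb, and 9 of these were tested, all on the side of the proliferins. Of the 20 rows around Prl3a1, 18 were prolactin family genes, and none passed the filter on low values, so its surroundings could not be compared. Without 5-aza, 1 of the 9 rose and none fell with the Setdb1 hairpin, and with 5-aza 2 rose and 1 fell. Over all genes 9.01% rose and 3.4% fell without 5-aza and 14.5% and 5.37% with it. With 5-aza, 2 rose and none fell in Setdb1 hairpin cells, and 1 rose and 1 fell in control hairpin cells. Over all genes, 21.4% rose and 7.51% fell in Setdb1 hairpin cells, and 18.8% were called in either direction in control hairpin cells. With the culture pair as a block, 3 rose in Setdb1 hairpin cells, the additional one being Ero1lb (0.26, adjusted p = 0.0231). Over all genes, 5276 were called in either direction with that block and 3792 without it. Their medians in the 4 comparisons were 0.04, 0.10, 0.08 and 0.05 on the log2 scale, against 0.03, 0.05, 0.06 and 0.04 over all genes.

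The neighbours that were called had small differences beside the proliferins. Gpr137b, which encodes a lysosomal membrane protein, rose with 5-aza in Setdb1 hairpin cells from 5.69 to 9.02 RPM, by 0.67 on the log2 scale (SE 0.13, adjusted p = 0.00350). Lgals8, the gene for galectin-8, rose by 0.18 in the same comparison (adjusted p = 0.0102), by 0.15 between hairpins with 5-aza (adjusted p = 0.0298) and by 0.14 with 5-aza in control hairpin cells (adjusted p = 0.0493). Heatr1, needed for ribosome production, rose with the Setdb1 hairpin by 0.22 without and 0.29 with 5-aza (adjusted p = 0.0176 and 0.00262) and fell with 5-aza in control hairpin cells by 0.17 (adjusted p = 0.0423). AC154221.1 fell between hairpins with 5-aza, by 0.35 (adjusted p = 0.0158). Nid1 and Lyst, beside them, were called in none of the 4 comparisons.

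The genes whose level over the 12 libraries was most like that of the summed proliferins were Ctnnal1 (Pearson r = 0.993 of log2 RPM), B230206H07Rik (0.993), Eps8l2 (0.993), Sox9 (0.987) and Mapk13 (0.986). All 5 had their highest group mean with the Setdb1 hairpin and 5-aza, Eps8l2 for instance at 5.37, 10.2, 9.18 and 21.1 RPM in the control, control with 5-aza, Setdb1 and Setdb1 with 5-aza groups. Their range was far smaller. The summed proliferins spanned 5.96 on the log2 scale, whereas Eps8l2 spanned 2.35 and Sox9 0.78.

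The genes most like Prl3a1 were Dlc1 (r = 0.981), Sgk3 (0.980), Pcdh9 (0.963), Map4k5 (0.951) and Angptl1 (0.944). Sgk3, a protein kinase, was at 7.28, 4.54, 5.53 and 4.55 RPM in the same order of groups. Prl3a1 spanned 3.37 on the log2 scale, Angptl1 spanned 1.91, and Map4k5 spanned 0.32. These genes were picked for their likeness out of all genes tested, and the libraries share their groups, so the values of r are descriptions.

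**Figure D4:**
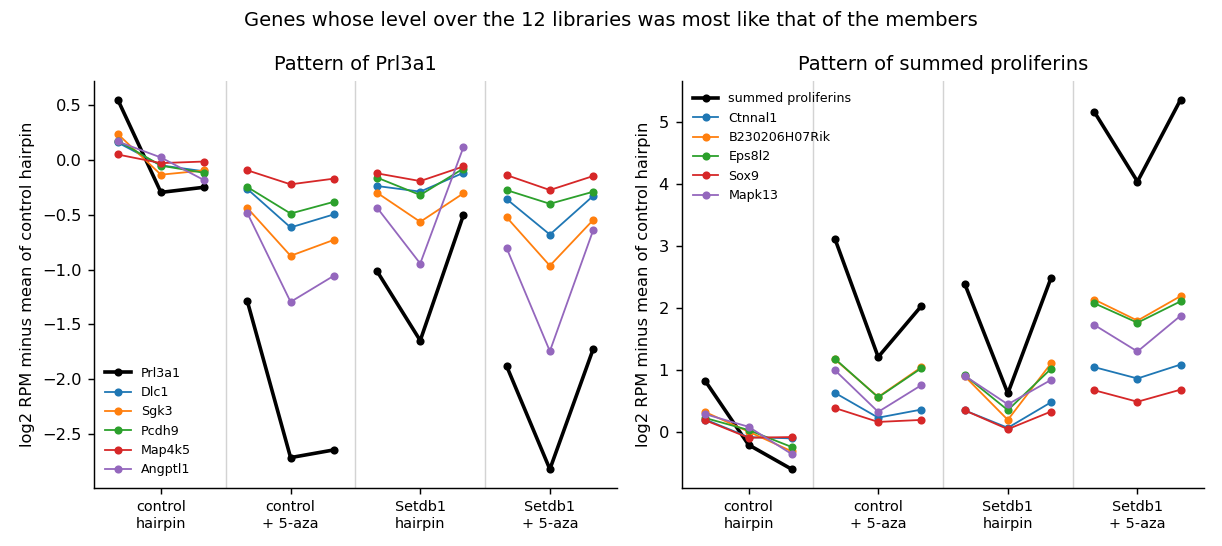
Log2 RPM minus the mean of the control hairpin group for Prl3a1 (left) and for the summed proliferins (right), in black, and for the 5 genes with the highest Pearson r with each; points are libraries in the order replicate 1, A, B within each group. The black lines span 3.37 and 5.96 on the log2 scale, more than any of the genes most like them.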

How the data were processed

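RNA-seq libraries of mouse embryonic fibroblasts (12 in 4 groups of 3, and 1 without a group) were analysed from the deposited table of log2 RPM values per gene interval. The labels name mm10 and CASAVA 1.4. For RNA-seq of these cells the paper describes a TopHat alignment to chromosome X alone, on an older build, while the deposited values cover other chromosomes. The aligner and counter behind those values are not given in the sources used here. Values of up to 1000 reads corresponded to whole reads (100%, tolerance 0.1 read), genes with no read were stored as 0.9 read, and reads were recovered, higher values by rounding. The 13134 genes reaching 1 RPM in 3 or more hairpin libraries entered 1 linear model of the 12 libraries with the group as its term and no block, using limma 3.58.1 (R 4.3.3; eBayes with a mean trend, two-sided). All adjusted p-values are Benjamini-Hochberg values from limma over all genes tested, called under 0.05. The test was checked on simulated data without culture or replicate effects and with less spread than Prl2c3 had. That check does not cover genes with such spread. Levels per kilobase used GENCODE exon lengths. Residuals of libraries sharing a hairpin and replicate name correlated at 0.472, 0.634 and 0.413 (Setdb1 hairpin) and 0.586, 0.149 and 0.0999 (control hairpin). The labels do not state that such libraries shared a culture. Following these correlations, the pairing was used as a block for 5-aza in Setdb1 hairpin cells. Blocked values are printed where the call of a member or a list's count there changed. This block called 5276 genes there against 3792 without it, so more calls with it were common. Named genes were the members, family genes with over 3 reads in 3 libraries, called list genes (at most 3 per direction) with Prlr, Ghr and Igf2r, called neighbours within 500 kb, and the 5 genes of most similar pattern. Markers of the other cell types and the neighbours not called were named after their values were seen. Members and lists were chosen with earlier results of these data known. Alternatives covered filters, pseudocounts (0.1 and 1 RPM), scaling, variance trend, blocks, voom on recovered reads and leaving out each library. A result on the list of receptors and signalling genes is not reported here, and its counts leave it out.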

Additional observations from a re-analysis of the deposited data

Results flagged for a closer look

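In the library given 5-aza with no named hairpin, which entered no comparison, Prl was at 0.589 RPM from 12 reads. This lay above each of the 3 control hairpin libraries, which held 0.0850 to 0.216 RPM, and within the range of the hairpin libraries with 5-aza. The same library held macrophage genes far above the hairpin libraries, with Lyz2 at 55.9 RPM against at most 1.10 RPM, and its depth was 17.4 M reads in the listed genes. Its library name holds PGK, and its genotype is not stated. The part of these differences in the level of Prl was not tested.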

How the results depend on the processing

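The rises of Prl2c3 with 5-aza in Setdb1 hairpin cells and between hairpins with 5-aza kept their direction and stayed past the threshold in all alternatives that gave a value. Prl2c2 and Prl3a1 did not pass the filter of 5 RPM, and Prl2c5 passed neither filter. Between hairpins with 5-aza, the difference of Prl2c2 ranged from 1.93 to 2.96 with 1 library left out and lost its call in 3 of 6 such fits. The difference of Prl3a1 there was -0.65 after quantile normalization and -0.18 to 0.54 with 1 library left out. Without 5-aza, quantile normalization gave Prl2c2 a difference of -0.16 between hairpins, and leaving out 1 library gave 1.61 to 2.76 for Prl2c2 and 1.45 to 2.39 for Prl2c3. The labels do not tie the replicate letter to a shared culture. Its residuals correlated unevenly, with r of -0.470 to 0.190 without 5-aza and of 0.484, 0.686 and -0.0197 with it. With that letter as a block, the differences between hairpins without 5-aza of -1.06 for Prl3a1, 2.11 for Prl2c2 and 1.77 for Prl2c3 passed the threshold (adjusted p = 0.0322, 0.0145 and 0.00379 by limma). Of these, Prl3a1 was chosen on the same control hairpin values, and Prl2c2 passed the filter through another group. For 5-aza in Setdb1 hairpin cells, the difference of Prl3a1 passed it after quantile normalization (-1.98) and with the culture pair as a block (-1.09), and the block changed no other call of a member there. On log2(RPM + 1), the differences of Prl2c2 fell to 1.16 for 5-aza in Setdb1 hairpin cells, 1.01 between hairpins with 5-aza and 0.19 without. In control hairpin cells, as a description, 5-aza gave -1.04 for Prl3a1 on log2(RPM + 1), and for Prl2c2 1.43 on log2(RPM + 0.1), 0.34 on log2(RPM + 1) and 0.72 after quantile normalization. The difference of the 5-aza effects was 0.47 for Prl3a1 and 2.73 for Prl2c2 after quantile normalization. With Prl2c5 alone in place of the summed proliferins, the log2 ratio of mean RPM was 4.09 between hairpins without 5-aza and 4.77 for 5-aza in control hairpin cells, where the control libraries held 2 reads. The number of genes called between hairpins with 5-aza was 2609, and 1548 with those 2 groups alone in the fit; for 5-aza in control hairpin cells it was 2471, and 3902 with the culture pair as a block. With 1 library left out, 721 to 1443 genes were called between hairpins without 5-aza and 1279 to 3428 with it, and 2191 to 3670 for 5-aza in Setdb1 hairpin and 1260 to 2451 in control hairpin cells. The cause of these changes was not tested. Where a fit leaves 2 libraries in a group, the groups still share 1 estimate of the spread. Depth limits Prl2c5 and the minor family genes, which held few reads in most libraries.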

Other observations

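In the library given 5-aza with no named hairpin, Prl3a1 was at 0.294 RPM from 6 reads, just below the 3 control hairpin libraries with 5-aza, of which the lowest was at 0.301 RPM. Prl2c3 was at 0.442 RPM from 9 reads, below all 12 hairpin libraries, of which the lowest was at 0.906 RPM. Prl2c2 and Prl2c5 had no read there, where 1 read was worth 0.0491 RPM. Whether the cells of this library, named PGK, share the genotype of the hairpin libraries is not stated.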
